A study of Homo sapiens with 151 samples.

Results

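HES4 and HES6 are TFs of the Hairy and Enhancer of split family, and the peak lists of both were taken from HepG2, a cell line from a human liver cancer. The members were chosen by sample title, which left 2 lists of the 127 peak lists in the series. Each list came from 1 ChIP-seq experiment with the anti-FLAG M2 antibody on cells that carried a FLAG-tagged version of the DNA-associated protein (DAP), crosslinked with 1% formaldehyde. The labels cite the CETCh-seq protocol and give no clone number or drug treatment, and a FLAG-tagged protein need not behave as the untagged one. The HES4 list holds 13641 peaks and the HES6 list 13605 after 1 interval listed again was dropped. They ranked 39 and 41 by length among the 121 preferred lists, the data sets chosen for each DAP, whose lengths ran from 195 to 61093 peaks with a median of 8680. The input library behind the HES4 list also served 6 other lists and that behind the HES6 list 3 others. Each DAP has 1 list, so no spread between replicates could be had, and HES4 was set against HES6 without a test. Wilson intervals at 95% are given instead and cover counting error only. Read depth is unknown.

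Hairy-type factors carry a basic helix-loop-helix (bHLH) domain that pairs 2 factors and reads a short DNA site, an Orange domain, and a C-terminal WRPW tail that recruits the Groucho (TLE) co-repressors. Several of them are induced by Notch receptors and hold back the proneural bHLH activators. Unlike most bHLH factors, which favor the E-box CANNTG, Hairy-type factors are known to read the class C site CACGCG and the N-box CACNAG as well as the class B E-box CACGTG. HES6 differs from its relatives in the loop of its bHLH domain and is known as an antagonist of HES1. In liver, Notch and HES1 are best known for their part in the formation of bile ducts.

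The strongest peaks of both lists lay at the same places, near XKR7, NPAS4, INSM2, ZFPM1, CELSR3 and UNC5A. The deposited signal is the enrichment of a peak over its own input, so it was used to rank peaks within a list and not to compare lists. The peak near XKR7, a member of the XK-related family, ranked 1 for HES4 and 2 for HES6, with a signal of 482 and 464. The peak 743 bp from the transcription start site (TSS) of NPAS4, a bHLH-PAS factor induced by neuronal activity, ranked 2 and 1, with 481 and 502. The peak near INSM2, a zinc finger factor, ranked 3 and 4, and the peak whose nearest TSS, 34816 bp away, was that of ZFPM1, a GATA cofactor, ranked 4 and 3. Next came CELSR3, an atypical cadherin of axon guidance, with ranks of 5 and 8, and UNC5A, a netrin receptor with its TSS 27250 bp away, with ranks of 9 and 9. All 6 regions also had a summit of 117 or 118 of the 119 other preferred lists within 100 bp, so these places are not particular to HES4 and HES6.

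The sequence under these summits is shown to let the sites be seen, as 81 bases of the plus strand of hg38 centered on the HES4 summit. Capitals mark TCAGCACC and GGACAGC, the left and right arms of RE1, and CACGTG and CACGCG, each on either strand. RE1 is the element that REST binds to silence neuronal genes outside neurons, and no REST list is analyzed here. XKR7 is chr20:31968546-31968626, INSM2 is chr14:35535332-35535412, CELSR3 is chr3:48661825-48661905 and ZFPM1 is chr16:88488056-88488136.

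XKR7: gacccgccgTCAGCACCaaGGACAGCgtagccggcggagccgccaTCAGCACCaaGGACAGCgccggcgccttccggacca

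INSM2: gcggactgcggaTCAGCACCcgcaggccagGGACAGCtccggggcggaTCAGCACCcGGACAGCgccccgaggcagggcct

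CELSR3: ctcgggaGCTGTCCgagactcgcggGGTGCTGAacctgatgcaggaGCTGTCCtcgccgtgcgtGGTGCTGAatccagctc

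ZFPM1: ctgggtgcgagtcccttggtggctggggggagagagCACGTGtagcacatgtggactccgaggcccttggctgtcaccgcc

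The first 3 hold 2 copies of each arm of RE1, and the window near ZFPM1 holds a class B E-box and neither arm. Among the 25 strongest peaks, 17 of HES4 and 15 of HES6 held the left arm of RE1 within 50 bp of the summit, and 2 and 1 held CACGTG.

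HES4 and HES6 shared few summits beyond the strongest peaks, though more of their peaks overlapped. Summits of both lists lay within 50 bp of each other at 1757 places, which is 12.9% of the HES4 list (95% interval 12.3 to 13.5) and 12.9% of the HES6 list (12.4 to 13.5). Counting any overlap of peaks in place of summits, 40.4% of HES4 peaks and 45.4% of HES6 peaks met a peak of the other list. The width of the peaks bears on that count, because 98.7% of HES4 peaks were 440 bp wide and 99.7% of HES6 peaks were 684 bp wide. Of the 100 strongest HES4 peaks, 86.0% had a HES6 summit within 50 bp, against 25.7% of peaks ranked 501 to 2000 and 6.04% of those ranked 10001 or lower. For HES6 the shares were 76.0%, 26.0% and 5.24%. Counting any overlap, the shares at the same ranks were 94%, 61.6% and 33.1% for HES4 and 95%, 67.3% and 38.3% for HES6. At the shared summits the Spearman correlation of the signals was 0.41 over 1757 peaks, which share 1 genome and 1 cell line and are not independent.

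Sharing, counted as summits within 50 bp, followed how many other DAPs were bound at a place. No HES4 peak without a summit of another preferred list within 100 bp was shared, 0 of 874, which allows a share of up to 0.343%. The same held for 0 of 976 such HES6 peaks, which allows up to 0.307%. With 11 to 20 other lists the shared part was 5.87% of HES4 peaks and 5.91% of HES6 peaks. With 31 to 60 it was 27.6% and 28.6%, and with more than 60 it was 63.4% (59.9 to 66.7) and 71.7% (68.1 to 75). Only 10 shared peaks had 2 other lists or fewer. Counting any overlap of peaks, the shares were higher. Without another list, 30 HES4 peaks (3.43%) and 125 HES6 peaks (12.8%) met a peak of the other factor. With at most 2 other lists, 166 HES4 peaks (7.99%) and 381 HES6 peaks (16.8%) did so. With more than 60, the shares were 86.5% and 94.2%.

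**Figure D1:**
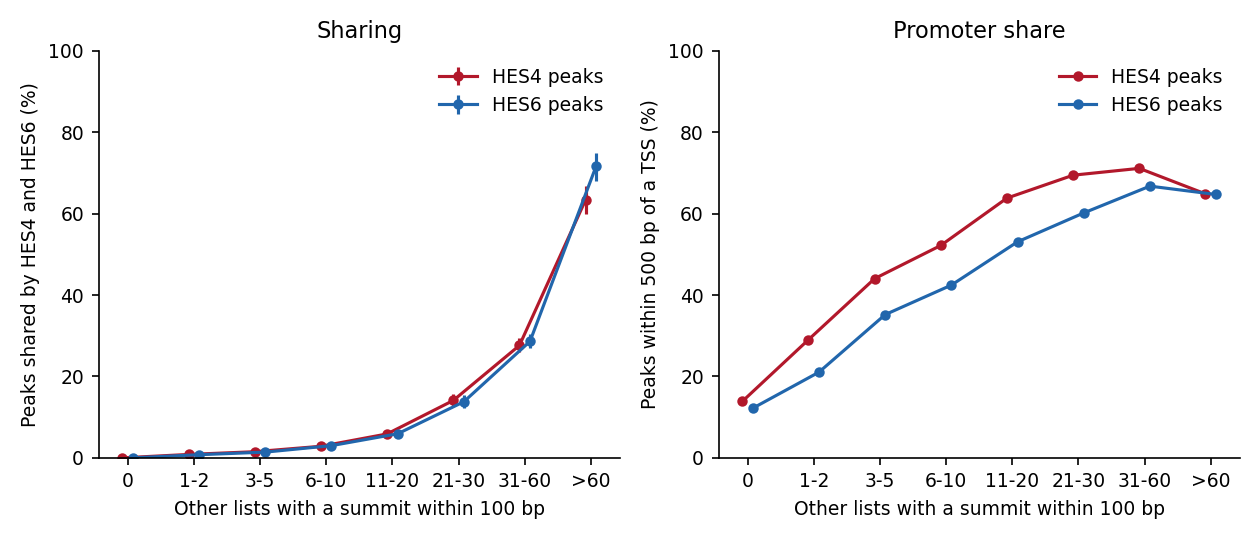
Percent of HES4 peaks (red) and HES6 peaks (blue) that are shared, with 95% Wilson intervals (left), and that lie within 500 bp of a TSS (right), by the number of the 119 other preferred lists with a summit within 100 bp. Sharing, counted as summits within 50 bp, stays below 6% up to 20 other lists and reaches 63.4% and 71.7% above 60.

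The 5 strongest shared regions with at most 2 other lists ranked from 8088 to 12072 for HES4 and from 4857 to 12825 for HES6. The first lay 9234 bp from the TSS of AHCY, the S-adenosylhomocysteine hydrolase, with ranks of 9500 for HES4 and 4857 for HES6, and ZNF669 was the other list there. The next lay near LIMD2, LAMTOR1, a scaffold of the Ragulator complex on lysosomes, and CHST15, a chondroitin sulfotransferase. The last lay near the lncRNA gene ENSG00000262172, with ranks of 12072 and 12825. The 81 bases around each of these 5 summits held none of the 4 marked words.

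The overlap of HES4 and HES6 was above that of the median pair of DAPs but within the spread between pairs. In the 2000 strongest peaks of each list the Jaccard index, shared peaks over all peaks, was 0.103. The median pair among the 105 preferred lists with 2000 peaks had 0.0735, and 24.7% of all 5460 pairs had at least the value of HES4 and HES6 (one-sided exact test over pairs, p = 0.247, adjusted p = 0.346 over 8 tests). HES6 was the 55th most similar list to HES4, and HES4 the 30th to HES6. The lists most like HES4 were ZNF701 (0.252), ZNF790 (0.225), HSF4 (0.213), SRY (0.206) and ZNF528 (0.200). ZNF790 shares its input library with HES4. The other lists with that input, POU2F1, ZNF219, ZFHX3, ZNF646 and ZNF865, ranked 74, 84, 99, 100 and 104 by likeness to HES4.

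The lists most like HES6 were ZNF879 (0.166), E2F8 (0.153), ZNF701 (0.144), ZNF85 (0.140) and AFF1 (0.139). ZNF879, ZNF85 and AFF1 are the 3 lists called against the input library of HES6, and the part of the shared input in this likeness was not tested. ZNF701 stood among the 5 closest lists of both factors, and its index with either was above the 0.103 of HES4 and HES6.

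Promoters made up most of the 2000 strongest peaks of both factors. Among the 100 strongest the promoter share was 45% for HES4 and 54% for HES6, against 73.7% and 65.5% at ranks 501 to 2000. Of the 2000 strongest peaks, 71.2% for HES4 and 66.6% for HES6 had their summit within 500 bp of the TSS of a canonical transcript, against a median of 58.6% (mean 53.7 ± 18.4, SD over 103 lists) for the others. They ranked 13 and 31 of 105, and the difference was within the spread between lists (two-sided exact permutation test over 5460 choices of 2 lists, p = 0.176, adjusted p = 0.346). Highly bound regions, where 25% or more of the other lists had a peak, held 92.4% of HES4 and 94.5% of HES6 peaks, against a median of 85.1% (exact permutation p = 0.158, adjusted p = 0.346). The GC content of the central 100 bp was 69.8% for HES4, the 4th highest of 105 lists, and 64.2% for HES6, the 50th, against a median of 63.9% (exact permutation p = 0.186, adjusted p = 0.346). None of the 8 tests passed, so these tests did not set the pair apart from other DAPs. Apart from the test of overlap, they took the mean of the 2 lists and do not judge either factor alone.

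**Figure D2:**
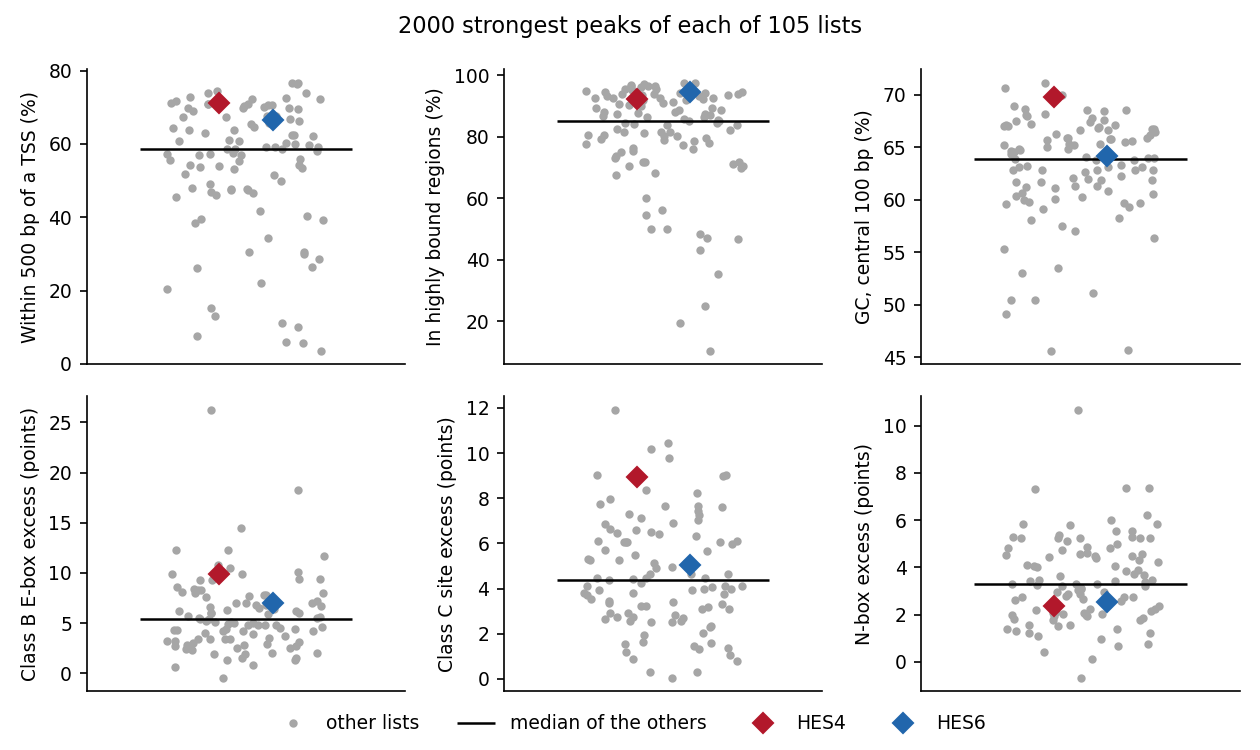
Each gray point is 1 of the 103 other preferred lists cut to its 2000 strongest peaks, the line is their median, and diamonds are HES4 (red) and HES6 (blue); horizontal scatter has no meaning. Excess is the percent of summit windows with a site minus the percent in flanking windows, in percentage points. HES4 stands near the top for GC content (4th) and the class C site (8th), and HES6 near the median of both.

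Over the whole lists HES4 lay closer to TSSs than HES6. Of all HES4 peaks, 56.2% (55.4 to 57.1) were within 500 bp of a TSS, against 48.1% (47.3 to 49.0) of HES6 peaks, and 16.8% and 24.2% were beyond 10 kb. The promoter share was higher for HES4 on 21 of 22 autosomes, by 8.95 ± 4.32 points (SD over autosomes). GC content was higher for HES4 on 22 of 22, by 7.82 ± 1.30 points. Autosomes of 1 list are not replicate experiments, so these values describe how even the difference was along the genome.

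The summits of the 2 lists also lay at different places within promoters. Promoter summits of HES4 lay at a median of 75 bp downstream of the TSS, and 71.0% of them were downstream. For HES6 the median was 21 bp downstream and 54.2% were downstream. Among the 41 lists with at least 13605 peaks, each cut to that number, HES4 had the 2nd highest share of downstream summits and HES6 the 23rd, and the median of the others was 21 bp and 54.8%. STAT5A, at 72.9%, and SRY, at 69.7%, stood next to HES4. Peaks of HES4 and HES6 had a median width of 440 bp and 684 bp, and the part of width in the summit position was not tested.

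**Figure D3:**
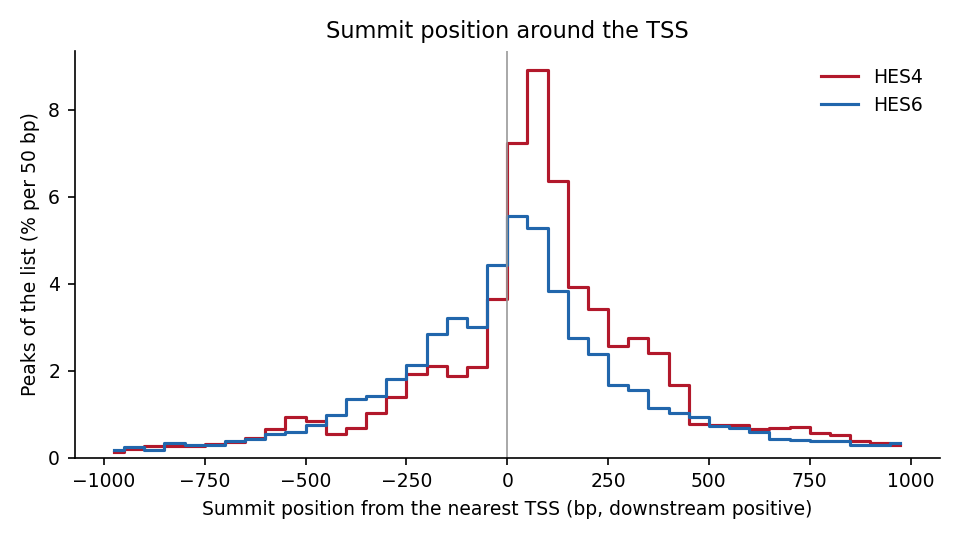
Percent of all peaks of HES4 (red) and HES6 (blue) per 50 bp by the position of the summit from the nearest TSS, downstream positive. The HES4 curve has its top just downstream of the TSS, with a median promoter offset of 75 bp, while HES6 is more even on both sides (median 21 bp).

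HES4 had a summit at 6174 of 20033 protein-coding promoters, or 30.8%, and HES6 at 4817, or 24%. Both had one at 3166, or 15.8%, which is 51.3% of the HES4 promoters and 65.7% of the HES6 promoters. These are larger shares than for summits within 50 bp, since at a promoter both need only lie within 500 bp of the TSS. Promoters with both had a median of 55 other lists, against 33 for HES4 alone, 37 for HES6 alone and 0 for neither. Of the 1744 promoters with more than 60 other lists, 86.4% had HES4, 83.0% had HES6 and 71.9% had both. Of the 6747 promoters without another list, 0.178% had HES4 and 0.0148% had HES6.

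Of the 10 strongest promoters bound by both, 5 held an arm of RE1 in the 81 bases centered on the HES4 summit and 5 held none of the marked words in those bases. Besides XKR7, those with an arm of RE1 in the 81 bases were HTR5A, a serotonin receptor with ranks of 7 and 12, CHGB, chromogranin B of secretory granules with 26 and 14, BARHL1, a homeobox factor with 29 and 57, and GLRA1, a glycine receptor with 25 and 61. Those without a marked word in the 81 bases were RANBP3, a cofactor of nuclear export with ranks of 27 and 6, PMS2 and AIMP2, a mismatch repair protein and a scaffold of tRNA synthetases that share 1 peak with ranks of 65 and 23, LEMD3, an inner nuclear membrane protein with 76 and 27, and GCFC2 with 77 and 15. The peak of PMS2 and AIMP2 does hold CACGTG within 50 bp of the summit, just outside the 81 bases. All 10 promoters had 106 to 118 other lists.

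The strongest promoters bound by 1 factor alone were also bound by many other DAPs. The strongest with HES4 and no HES6 peak was UNC80, a subunit of the NALCN sodium leak channel, with a rank of 85 and a signal of 171. It was followed by CCDC88C, MCM4 of the replicative helicase, MIPOL1, RFC1 of the clamp loader, CHAMP1, TOB1 and EFHD1, with ranks of 109 to 251 and 46 to 90 other lists. The strongest with HES6 and no HES4 peak was MED23, a Mediator subunit, with a rank of 39 and a signal of 146. KDM3A, a histone demethylase, ranked 65 and TAOK2, a kinase, ranked 111. COA3 and CNTD1, which share a peak, SFT2D1, the importin IPO4 and the proteasome inhibitor PSMF1 ranked 123 to 194, and these 8 HES6 promoters had 68 to 94 other lists.

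The HES4 gene itself, on chromosome 1, had no peak of either list within 5 kb. The HES6 gene, on chromosome 2 and read from the minus strand, had a HES4 summit 78 bp downstream of its TSS (rank 4722, signal 51.8) and a HES6 summit 319 bp downstream (rank 3684, signal 52.5). A stronger HES4 peak, of rank 66 and signal 187, lay inside the HES6 gene, where 91 other lists also had a summit. No HES6 peak was found at that place. No other list had a summit within 100 bp of the HES6 summit in its own gene, but 34 had one within 500 bp of the TSS. That HES6 peak also overlapped the HES4 peak of rank 4722, where 26 other lists had a summit within 100 bp of the HES4 summit.

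Promoters of the Hairy family had more summits of HES4 than of HES6. Of 13 Hairy and HEY genes, HES4 had a summit at 5 (38.5%, against the 30.8% of all promoters) and HES6 at 1 (7.69%, against 24%). The 5 were HES1, a target of Notch (rank 4088, signal 54.5), HES6, HEY1, HEY2 and BHLHE40, a clock and hypoxia factor. The other 39 lists cut to the same number of peaks bound 0 to 5 of the 13 with a median of 2, and 1 of them reached 5. Of 16 Groucho co-repressors and partners, HES4 bound 8 (50%) and HES6 bound 6 (37.5%), with HDAC1, HDAC2, TLE1 and SIRT1 in both. The other lists had a median of 5 and a maximum of 9. HDAC2, a histone deacetylase, was the strongest of these 4, with ranks of 467 and 902.

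Each factor bound 1 promoter of the Notch ligands and receptors. Of 12 ligands and receptors, HES4 bound 1, DLK1, a Notch-related ligand, and HES6 bound 1, JAG1, the ligand of bile duct formation. That is 8.33% each, against 30.8% and 24% of all promoters, and the 39 other lists had a median of 1. Of 33 processing and signaling genes, HES4 bound 8 (24.2%) and HES6 bound 5 (15.2%), and ADAM17, which cuts the receptor, POFUT1 and ITCH were among those with both. The other lists had a median of 9. Among 19 proneural bHLH genes and partners HES4 bound 5 (26.3%) and HES6 bound 2 (10.5%), against a median of 3 for the other lists, of which 36 of 39 bound at least as many as HES6. Both bound ID1 and ID2, which block bHLH factors by pairing with them, with ranks of 1730 and 605 for ID1 and 938 and 1763 for ID2. HES4 alone bound ID3, ATOH7 and TCF12.

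Of 26 other bHLH factors of the E-box network, HES4 bound 12 (46.2%, against 30.8% of all promoters) and HES6 bound 10 (38.5%, against 24%). The other lists had a median of 9. MGA, MLX, MLXIP, CRY1 and HIF1A were among those with both, and MGA ranked 431 for HES4 and 2359 for HES6. Of 18 CDK inhibitors and cyclins, HES4 bound 6 (33.3%), with CDKN1A (rank 2414), and HES6 bound 5 (27.8%), with CDKN2B (rank 7511). The other lists had a median of 7. CDKN1A is the p21 inhibitor of cyclin-dependent kinases and CDKN2B is p15.

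Some promoters of hepatocyte genes had summits of both factors. Of 20 hepatocyte factors and products, HES4 bound 11 (55.0%) and HES6 bound 7 (35.0%), against a median of 10 for the other lists. Over all protein-coding promoters the shares were 30.8% for HES4 and 24% for HES6. Of the 39 other lists, 14 bound at least as many hepatocyte promoters as HES4 and 30 at least as many as HES6. The 7 hepatocyte promoters of HES6 were also bound by HES4. They comprised HNF4A, CEBPA and FOXA2, which are hepatocyte TFs, and APOA1, APOB, TF and SERPINA1, which encode plasma proteins. HNF4A ranked 665 for HES4 and 1150 for HES6, and CEBPA ranked 1235 and 10673. Of 12 bile duct genes HES4 bound 2 (16.7%), SOX9 and ONECUT2, and HES6 bound 1 (8.33%), EPCAM, against a median of 2 for the other lists. Of 15 neuronal genes HES4 bound 5 (33.3%), SYP, SYN1, TUBB3, REST and INSM2, and HES6 bound 2 (13.3%), SYP and TUBB3. The other lists had a median of 2. The strong peaks near NPAS4, CELSR3 and INSM2 lay 743, 1021 and 1208 bp from the TSS, outside the promoter window, and were not counted. At the promoter of REST, 2 other lists had a summit. Of 20 housekeeping genes each bound 14 (70.0%), against a median of 10, and 9 were bound by both.

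**Figure D4:**
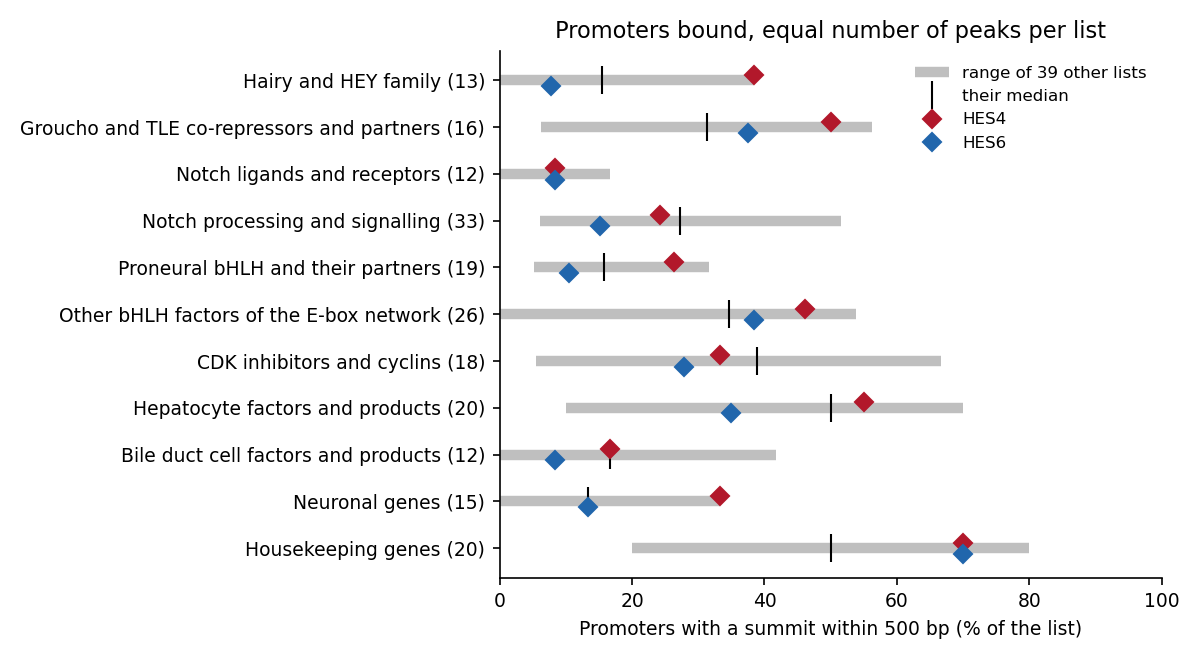
Percent of the promoters of each gene list (number of genes in brackets) with a summit of HES4 (red) or HES6 (blue) within 500 bp. Gray bars give the range and black ticks the median of the 39 other lists with at least 13605 peaks, each cut to that number; both factors lie within the range of the other lists in every gene list.

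Of the 4 words known for bHLH factors, the class B E-box and the class C site had the larger excesses at the summits of both in the 2000 strongest peaks. For HES4 the order of these 2 words turned with the setting, since with all peaks the excess was 3.51 points for CACGTG and 4.01 for CACGCG. At the strongest 2000, CACGTG lay within 50 bp of the summit at 12.5% of HES4 peaks and 9.45% of HES6 peaks, against 2.65% and 2.45% in windows centered 300 bp away and 3.29% of the windows at all protein-coding TSSs. CACGCG lay at 13.5% and 9.10%, against 4.50% and 4.05% in the flanks and 5.84% of TSS windows. The N-box CACNAG lay at 17.9% and 17.7%, against 15.5% and 15.1% and 14.2% of TSS windows. CAGCTG, the class A E-box of proneural factors, lay at 7.50% and 7.05%, against 5.40% and 5.90% and 8.28% of TSS windows. Words were searched on both strands, and CANNTG takes in CACGTG and CAGCTG.

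No test of these words, each on the mean of the 2 lists, set the pair apart from other DAPs. The excess over the flanks for CACGTG was 9.85 points for HES4 (12th of 105) and 7.0 for HES6 (33rd), against a median of 5.38 (exact permutation p = 0.259, adjusted p = 0.346). For CACGCG it was 8.95 (8th) and 5.05 (44th), against 4.38 (exact permutation p = 0.208, adjusted p = 0.346). For CACNAG the values were 2.38 and 2.53, against 3.28 (exact permutation p = 0.453, adjusted p = 0.517), and for CAGCTG 2.10 and 1.15, against 1.95 (exact permutation p = 0.671, adjusted p = 0.671). The list with the largest CACGTG share was MGA, a bHLH partner of MAX, at 28.7%.

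The class B E-box was found where many DAPs were bound. CACGTG lay at 19.4% of HES4 peaks and 17.7% of HES6 peaks with more than 60 other lists, against 2.54% and 1.98% in the flanks. At peaks with at most 2 other lists it lay at 2.65% and 1.46%, against 2.72% and 1.83% in the flanks, so no excess was seen there. CACGCG was at 3.95% and 1.54% of those peaks, against 2.48% and 1.41%, and CACNAG at 19% and 15.6%, against 16.8% and 15.2%.

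Other E-box factors lay at the same peaks, a comparison chosen after the word counts were seen. Of the 250 strong HES4 peaks with CACGTG, 80.4% had an MGA summit within 50 bp, against 35.9% of the 1750 without. Of the 189 strong HES6 peaks with CACGTG, 77.2% had one, against 42.6% of the 1811 without. For MLXIP, a glucose-responsive bHLH factor, the shares were 50.0% against 30.7% for HES4 and 46.6% against 21% for HES6. These lists were taken whole, with 44852 peaks for MGA and 5503 for MLXIP, so their shares are not on 1 scale. A HES6 summit lay at 53.6% of the HES4 peaks with CACGTG, against 32.1% without. A HES4 summit lay at 50.8% of the HES6 peaks with it, against 29.0% without. Peaks with CACGTG also had more other lists, a median of 61 against 43 for HES4 and 60 against 37 for HES6, and the part of that in the co-binding was not tested.

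Of the 5 strongest shared peaks with CACGTG within 50 bp of the summit, ZFPM1 is shown above, and AIMP2, with ranks of 65 and 23, holds the word outside the 81 bases. The others are shown for the site, with capitals as above, and are PTMA, at chr2:231710267-231710347, with ranks of 16 and 26, and the lncRNA genes ENSG00000291073, at chr16:21520565-21520645, with 79 and 40, and ENSG00000289555, at chr2:241508805-241508885, with 80 and 32.

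PTMA: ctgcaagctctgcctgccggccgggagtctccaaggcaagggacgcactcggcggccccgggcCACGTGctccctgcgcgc

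ENSG00000291073: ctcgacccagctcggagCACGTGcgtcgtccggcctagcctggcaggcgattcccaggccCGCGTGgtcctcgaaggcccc

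ENSG00000289555: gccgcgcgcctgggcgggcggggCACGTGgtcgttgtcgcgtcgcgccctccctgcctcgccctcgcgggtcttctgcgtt

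All 3 windows hold the E-box, and that of ENSG00000291073 also holds a class C site.

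**Figure D5:**
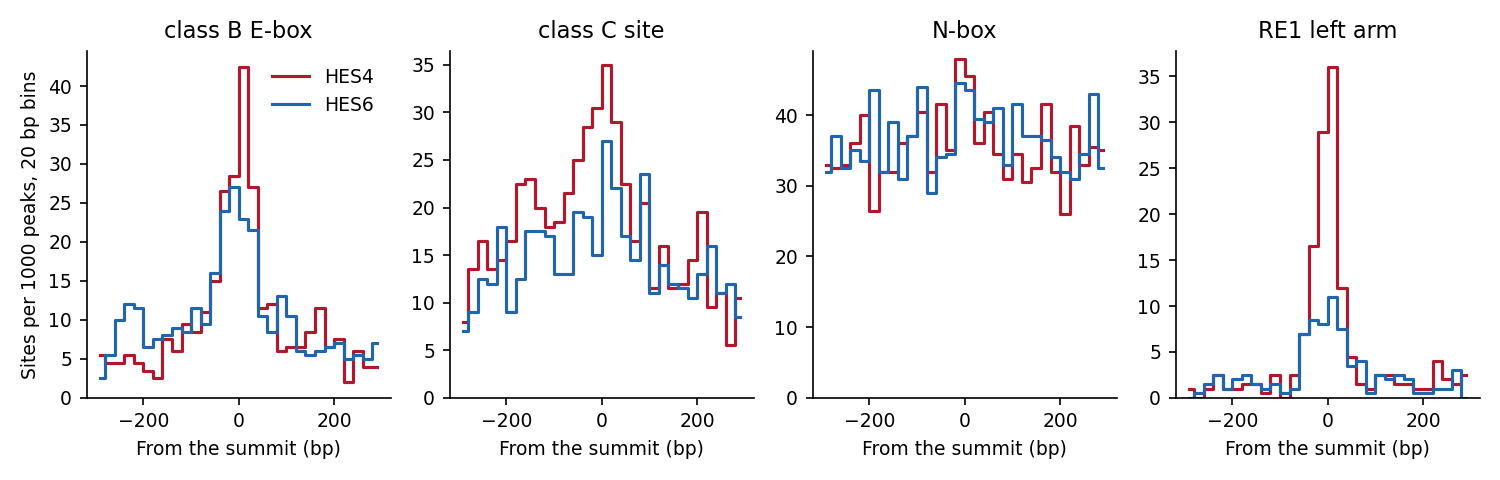
Sites per 1000 of the 2000 strongest peaks in 20 bp bins by distance from the summit, for HES4 (red) and HES6 (blue). The class B E-box (CACGTG) and the left arm of RE1 (TCAGCACC) gather at the summit, the class C site (CACGCG) less so and the N-box (CACNAG) little; the RE1 arm reaches 36.0 per 1000 peaks for HES4 and 11 for HES6.

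The lists also differed in RE1, picked after all 8-base words had been counted. TCAGCACC led the words of both lists, at 9.25% of the 2000 strongest HES4 peaks against 0.400% in the flanks, and at 3.15% of HES6 peaks against 0.475%. It lay in 0.589% of TSS windows, and GGACAGC in 2.60%. HES4 ranked 2nd of 105 lists in this excess, after NPAS2 (10.0%), and HES6 ranked 72nd, with a median excess of 3.80 points for the others. Both arms in order with a gap of 2 bases, here called a whole RE1, lay at 83 of the HES4 peaks and 20 of the HES6 peaks, against a median of 32 for the others, and at 2 of 20033 TSS windows.

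Nearly every whole RE1 under HES6 was shared. HES4 had more of them, so most of those under HES4 could not pair with a whole RE1 under HES6. Over the whole lists, 131 HES4 peaks and 45 HES6 peaks held a whole RE1. Of the 45, 44 (97.8%) had a HES4 summit within 50 bp, against 12.9% of all HES6 peaks. Of the 131, 47 (35.9%) had a HES6 summit that close, against 12.9% of all HES4 peaks, and 81 met no HES6 peak at all. The part that met a HES6 peak, 38.2%, was near the 40.4% of all HES4 peaks. With more than 60 other lists, 37 of 49 HES4 sites were shared, and with 60 or fewer, 10 of 82. For HES6 the counts were 35 of 35 and 9 of 10. Of all peaks with more than 60 other lists, 63.4% of HES4 and 71.7% of HES6 were shared. The part of the other lists in the sharing of RE1 peaks was not tested. Of the 131, 23 lay at promoters and 64 beyond 10 kb from a TSS.

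The strongest HES4 peaks over a whole RE1 and without HES6 include those near RESP18, a protein of endocrine secretory granules, at chr2:219331709-219331789 (rank 190, 1428 bp from the TSS, 71 other lists), and SLC32A1, the vesicular transporter of GABA, at chr20:38686021-38686101 (rank 229, 38425 bp from the TSS, 88 other lists). The promoter of UNC80 (chr2:209771729-209771809), the strongest bound by HES4 alone, held both arms with a wider gap.

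RESP18: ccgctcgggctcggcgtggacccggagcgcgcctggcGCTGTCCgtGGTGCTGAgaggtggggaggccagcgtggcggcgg

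SLC32A1: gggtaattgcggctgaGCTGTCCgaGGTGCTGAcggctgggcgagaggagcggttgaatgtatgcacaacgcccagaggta

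UNC80: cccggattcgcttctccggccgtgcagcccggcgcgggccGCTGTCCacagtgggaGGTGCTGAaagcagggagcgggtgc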

How the data were processed

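Peak lists of HES4 and HES6 were read with the 119 other preferred lists and, as an alternative, the 6 non-preferred ones. Per the study, the authors ran the ENCODE ChIP-seq pipeline themselves on hg38 and kept the optimal peak calls over input. Aligner and peak caller: not given in the sources used here. The deposited score runs from 540 to 1000. The deposited signal is a peak's enrichment over its own input, not scaled between lists, and served to rank peaks. The deposited q values, which fall below 0 in some lists, count as a score and were not used.

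Intervals listed again were dropped. A promoter spans 500 bp up and down from a canonical TSS in GENCODE 44, which gave 38899 TSSs, 20033 of them protein-coding and the others lncRNA. Words were searched within 50 bp of summits and in windows 300 bp to either side. Highly bound regions are merged central 100 bp of peaks with at least 25% of the other lists. Python 3.11.15, numpy 2.4.6 and pandas 2.3.3 were used, and the calculations were tested on simulated data. Exact permutation tests over lists were adjusted by Benjamini-Hochberg over 8 tests.

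Named promoters are the 10 strongest shared, the 8 strongest of each factor alone, members of 11 gene lists and both factors' own genes; named regions are the 5 strongest shared with at most 2 other lists. The 5 lists most like each factor are named too. RE1, the E-box peaks shown and the co-bound factors were chosen after their values were seen. The members and lists were chosen with earlier results of these data known. Of the gene list members, 1 is not reported here.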

Additional observations from a re-analysis of the deposited data

How the results depend on the processing

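No alternative took any of the 8 tests over lists past the threshold. Some differences changed direction, and the cause was not tested. For CAGCTG the difference was 0.470 points with 500 peaks per list, 0.494 among lists that share an input and 0.0944 for HES4 alone, against -0.381 as reported. With all peaks the difference was -0.473 points for highly bound regions and -0.0441 for CACGTG. Without peaks in highly bound regions the index of HES4 and HES6 differed from the median pair by -0.00408. With 13605 peaks from each of 41 lists, an alternative chosen after seeing the data, the difference was -0.395 points for CACGTG and -0.0298 for the index. The smallest p of any alternative was that for the share in highly bound regions with 500 peaks, 99.6% and 100% against a median of 94.0% (exact permutation p = 0.0239, adjusted p = 0.191). Among the 11 lists that share an input the differences were larger, 26.2 points for highly bound regions and 26.8 for the promoter share (exact permutation p = 0.109 and 0.145, adjusted p = 0.349 for both). Keeping peaks with a score of 830 or more left 3956 promoters for HES4, 2670 for HES6 and 1504 for both, since it keeps 48.8% and 38.5% of the peaks; wider promoter rules moved these counts by less than 1.5 times. The share of peaks with TCAGCACC depended on the number taken, from 21.4% of 500 to 2.80% of all HES4 peaks and from 7.60% to 1.27% for HES6. No paired analysis was possible because each DAP has 1 list. Read depth is unknown, and 1 list per DAP leaves the difference between HES4 and HES6 without a replicate check.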

Other observations

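Other words under the summits also differed between the lists. CCAAT, the site of NF-Y, lay at 3.65% of the 2000 strongest HES4 peaks against 9.73% in their flanks, and the difference ranked 103rd of 105 lists. In HES6 it lay at 8.50% against 10.8% and ranked 36th. The ETS word CCGGAAG lay at 4.15% of HES4 peaks and 6.50% of HES6 peaks, against 1.95% and 2.43% in the flanks. The forkhead word TGTTTAC lay at 0.50% and 1.80%, against 0.675% and 0.925%. The AP-1 word TGACTCA lay at 0.900% and 1.95%, against 1.18% and 1.15%. The NRF1 site ranked 20th for HES4 and 9th for HES6 by its excess. Of windows at protein-coding TSSs, 9.37% held CCAAT, 8.33% CCGGAAG, 0.639% TGTTTAC, 1.09% TGACTCA and 4.07% the NRF1 site. These are descriptions without a test.

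Peaks without any other list made up 6.41% of HES4 and 7.17% of HES6, and they differed in GC content, with 62.0% for HES4 and 46.5% for HES6. Of these peaks, 13.8% and 12.2% lay within 500 bp of a TSS.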
